A study of Mus musculus with 45 samples.

Results

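Gene expression in the whole uterus was compared between wildtype (WT) and Plag1 knockout (KO) females. The libraries were chosen by sample title, and those of uterus from WT and KO mice were taken, which gave 14 of the 45 libraries of the series, 7 WT and 7 KO, 1 for each of 14 mice. The remaining 31 libraries were scraped endometrium (16) and myometrium (15) of the same 14 mice. They are used below for side by side values, for tests of the difference between tissues and in 1 alternative fit of all 6 groups. All mice were young, sexually mature females of the outbred CD-1 stock. They had received 5 IU of pregnant mare serum and, 2 days later, 5 IU of human chorionic gonadotropin (hCG). The uteri were taken on the following day, so WT and KO share the superovulation treatment and there was no untreated group. Females were mated with WT males unless oocytes were collected, and the labels do not say which of these uteri came from mated mice. In KO mice lacZ takes the place of the whole Plag1 open reading frame in every cell, from conception on, and the mice came from heterozygous breeding, so effects arising within the uterus and effects arising elsewhere in the animal cannot be told apart. The comparison addresses whether the maternal uterus differs between the genotypes.

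The product of Plag1 is a DNA-binding protein of the zinc finger class that recognises a GC-rich consensus and is known for its role in growth, and Plagl1 and Plagl2 are its relatives. Insulin-like growth factor 2 (Igf2) is its best known target. After ovulation the uterus is under ovarian steroids, to which the luminal epithelium, the glands, the stroma and the smooth muscle each respond with their own secreted proteins and receptors. Whole uterus holds all of these cell types, and in bulk tissue fewer cells of a type and less RNA per cell cannot be told apart.

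The PLAG1 consensus was searched as GGGGC or GAGGC, then a spacer of 6 to 8 bases (N), then GGG, on both strands of the 300 bases from 250 before to 50 after the annotated 5′ end of each gene in NCBIM37, the same build as mm9. One match each is shown for Plag1, Chchd7 and Penk on chromosome 4 and for some of the genes named further on, to show what the searched letters look like there (Plag1, Chchd7, Osr2, Cdc42ep1 and Tnip1 hold more than 1), with the core and the G cluster in capitals.
Plag1, minus strand, chr4:3865639-3865652: GGGGCgggggcGGG
Chchd7, plus strand, chr4:3865822-3865835: GGGGCgcggtgGGG
Penk, minus strand, chr4:4066075-4066090: GGGGCcgcgtgctGGG
Osr2, plus strand, chr15:35225848-35225861: GGGGCagcctgGGG
Smoc1, minus strand, chr12:82127721-82127736: GAGGCtgactgacGGG
Sult5a1, plus strand, chr8:125682435-125682448: GGGGCcaggaaGGG
Cdc42ep1, minus strand, chr15:78673022-78673035: GGGGCgggggcGGG
5430421N21Rik, minus strand, chr15:101322135-101322150: GGGGCagagaccaGGG
Tnip1, minus strand, chr11:54776550-54776563: GAGGCgggatgGGG
Atp7a, plus strand, chrX:103222557-103222572: GGGGCgactttgtGGG
Gapdh, minus strand, chr6:125116576-125116589: GGGGCtacagtGGG
Such a match is a description and not a binding site, since 34.0% of the 11834 tested genes with a promoter in the annotation held at least 1.

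The libraries held 784630 to 1232992 counts in WT and 490999 to 1099526 in KO. WT libraries averaged 1050000 ± 158650 counts and KO libraries 815970 ± 213450 (SD, n = 7 per genotype; exact two-sided permutation p = 0.0396). ERCC spike-ins took 0.865% ± 0.0617 of the counts of WT libraries and 1.04% ± 0.107 of those of KO libraries (SD, n = 7 per genotype, exact two-sided permutation p = 0.00524), and the difference was 0.207 percentage points within plate row A (exact permutation p = 0.0179, the smallest that row allows) and 0.10035 within row D (p = 0.333). Fewer genes were detected in KO libraries, 11972 ± 795 against 12783 ± 360 in WT (SD, n = 7 per genotype, exact two-sided permutation p = 0.0315), and the difference was -562.4 within row A and -857.5 within row D (exact permutation p = 0.161 and 0.267). Wells of plate row A held 5 WT and 3 KO uteri and wells of row D held 2 WT and 4 KO uteri, and the KO minus WT difference in depth was -135180 within row A and -191150 within row D (exact permutation p = 0.161 and 0.267, smallest p allowed by row D 0.0667). The library of KO mouse 13 stood apart in its scaling factor, 0.745 against 0.875 to 1.21 in the other 13 libraries, and in its 20 most abundant genes, which took 23.7% of its counts against 17.01% to 21.0%. Defining markers of the labelled tissue were present in every library: the smooth muscle actin Acta2 lay between 2119 and 4813 counts per 1000000 (CPM, scaled by TMM factors), the stromal proteoglycan Dcn between 1028 and 2155 CPM and the epithelial keratin Krt8 between 103 and 658 CPM. A level of 3 counts, taken as the floor, was 2.26 to 5.65 CPM depending on the library. The floor covers counting error only, and the 95% intervals of fold changes given below are those of the edgeR fit.

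Plag1 itself was at the limit of detection and did not check the labels. It had 0 counts in 6 of the 7 WT libraries and 0.944 CPM in WT mouse 3, and it reached 0.899 CPM in KO mouse 2 and 1.73 CPM in KO mouse 13, with 0 in the other 5. These values are single counts below the floor. The tags come from 5′ ends of transcripts and may lie outside the replaced coding part, so a count in a KO library does not go against its label. Plagl1 was found at 0 to 3.10 CPM in WT and at 0 to 2.61 CPM in KO, and Plagl2 at 0.944 to 5.28 CPM in WT and 0 to 9.41 CPM in KO. The log2 fold change (KO over WT) was -0.60 (95% interval -2.38 to 1.18) for Plagl1 and -0.54 (-1.80 to 0.71) for Plagl2, and both intervals include a 2-fold decrease.

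No gene of the 12959 tested passed an adjusted p of 0.05 in edgeR's quasi-likelihood test, and the smallest adjusted p was 0.387. DESeq2 called 7 genes, 0.105% of the 6678 to which it gave an adjusted p. Those higher in KO included Pglyrp1 and Atp7a, and those lower in KO were Ttr, 5430421N21Rik, Sult5a1 and Angptl7. At an unadjusted p under 0.05 edgeR counted 731 genes (5.64%), 267 higher (2.06%) and 464 lower (3.58%) in KO, DESeq2 counted 725 (5.59%), and exact permutation tests of log2(CPM + 1) over all 3432 splits of the mice counted 726 (5.60%), with 8 genes at the smallest p they can give, 0.000583, and a smallest adjusted p of 0.795. The split depended on the scaling, with 36.5% of the unadjusted edgeR genes higher in KO under TMM factors, 43.4% under RLE factors (relative log expression) and 3.81% when libraries were scaled to the spike-ins, where the median over all genes moved from -0.05 to -0.37 on the log2 scale. The median log2 fold change was -0.11 for genes under 10 CPM and 0.09 for genes of 100 CPM or more, and 45.3% of the genes at an unadjusted p were higher in KO with counts thinned to the smallest library and 44.7% with log2 depth as a term. The fold change fitted by edgeR exceeded 2 in either direction for 1153 genes (8.9%). Values below are scaled by TMM factors.

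**Figure D1:**
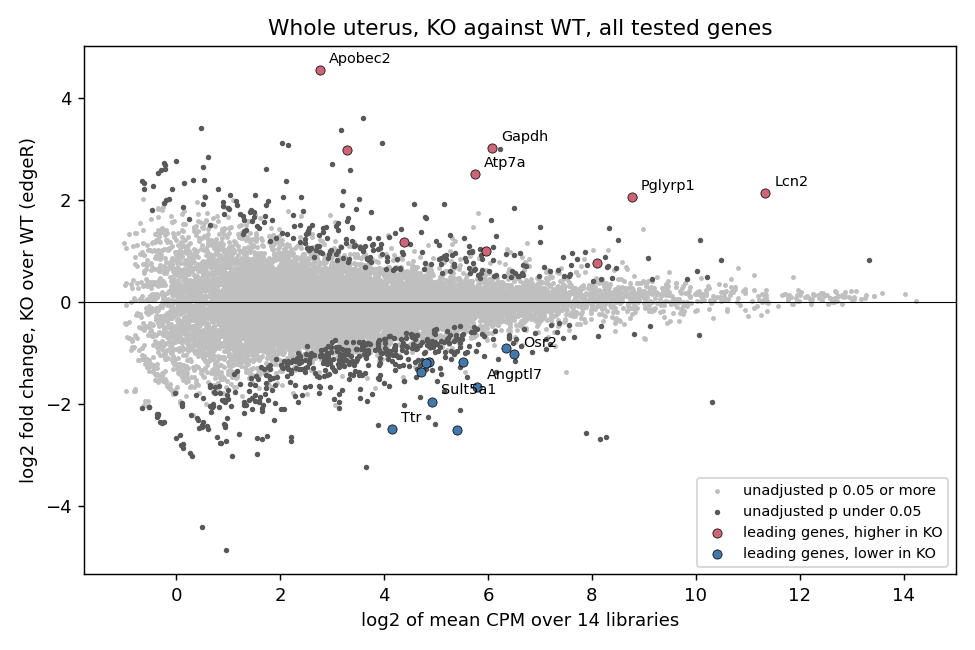
Each point is 1 of 12959 tested genes, with the log2 of its mean CPM over the 14 uterus libraries on the x axis and the edgeR log2 fold change, KO over WT, on the y axis. Dark points are the 731 genes at an unadjusted p under 0.05, and coloured points are 19 leading genes, from Apobec2 at 4.54 to 5430421N21Rik at -2.51.

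The leading genes higher in KO included Lcn2, Pglyrp1, Sprr1a and Cxadr. Lcn2 (chr2:32240153-32243317), a lipocalin that binds bacterial siderophores and responds to estrogen in the uterus, lay at 127, 675 and 2197 CPM (lowest, median and highest) in WT and at 1044, 2838 and 11519 CPM in KO. In 4 of 7 KO mice the value was above the highest WT value, and the 3 others fell among the WT values. Its log2 fold change was 2.13 ± 0.56 (SE, edgeR adjusted p = 0.570). Pglyrp1 (chr7:19470039-19475787), a peptidoglycan recognition protein with antibacterial activity, lay at 67.8, 173 and 291 CPM in WT and at 222, 461 and 1759 CPM in KO, with 4 KO mice above every WT mouse and a log2 fold change of 2.06 ± 0.44 (adjusted p = 0.387 in edgeR and 0.0316 in DESeq2). Sprr1a, a small proline-rich protein of cornified envelopes, lay at 0.755, 1.07 and 4.94 CPM in WT and at 0, 7.41 and 65.2 CPM in KO. Cxadr, a junctional adhesion protein and virus receptor, lay at 8.53, 13.2 and 17.9 CPM in WT and at 11.7, 31.1 and 44.5 CPM in KO, and its log2 fold change was 1.18 ± 0.32 (edgeR adjusted p = 0.570).

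The high values of several of these genes came from the same mice. KO mice 6 and 11 held the highest and second highest KO value of Lcn2, Pglyrp1, Apobec2 and Sprr1a. Apobec2, of the cytidine deaminase family, was 32.6 CPM in KO mouse 6 and 52.7 CPM in KO mouse 11 and at most 4.45 CPM in every other library. When KO mouse 6 was left out, the log2 fold change of Lcn2 was 1.64 and that of Pglyrp1 was 1.64, and the edgeR adjusted p of Pglyrp1 was 0.705.

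Urah, an enzyme of urate breakdown, and 2200002D01Rik differed by less and more evenly. Urah lay at 30.9, 35.8 and 60.4 CPM in WT and at 44.5, 80.3 and 126 CPM in KO, with 5 of 7 KO mice above the WT range and a log2 fold change of 1.00 ± 0.25 (edgeR adjusted p = 0.533). The gene 2200002D01Rik lay at 141, 208 and 276 CPM in WT and at 218, 315 and 503 CPM in KO, again with 5 KO mice above the WT range, and its log2 fold change was 0.77 ± 0.20 (edgeR adjusted p = 0.570).

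Gapdh and Atp7a split the KO mice into high and low ones. Gapdh (chr6:125111871-125116485), the glycolytic enzyme, was 441 CPM in KO mouse 2 and 313 CPM in KO mouse 9, and 9.41 to 30.2 CPM in the other 5 KO mice, a range that overlapped the 9.81 to 22.7 CPM of WT. Its log2 fold change was 3.01 ± 0.73 (edgeR adjusted p = 0.426), and an exact permutation test gave p = 0.146 before adjustment. Gapdh has many near-identical pseudogene copies, so its counts are uncertain. Atp7a (chrX:103222615-103320265), a copper transporter, was 66.7 CPM in WT mouse 7 and 2.47 to 15.1 CPM in the other 6 WT mice, while 5 KO mice lay at 75.6 to 168 CPM and KO mice 4 and 9 at 10.0 and 23.7 CPM. Its log2 fold change was 2.50 ± 0.61 (adjusted p = 0.426 in edgeR and 0.0486 in DESeq2), and leaving out WT mouse 7 gave 3.66 with an edgeR adjusted p of 0.00983, the only call edgeR made in any fit without 1 mouse.

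**Figure D2:**
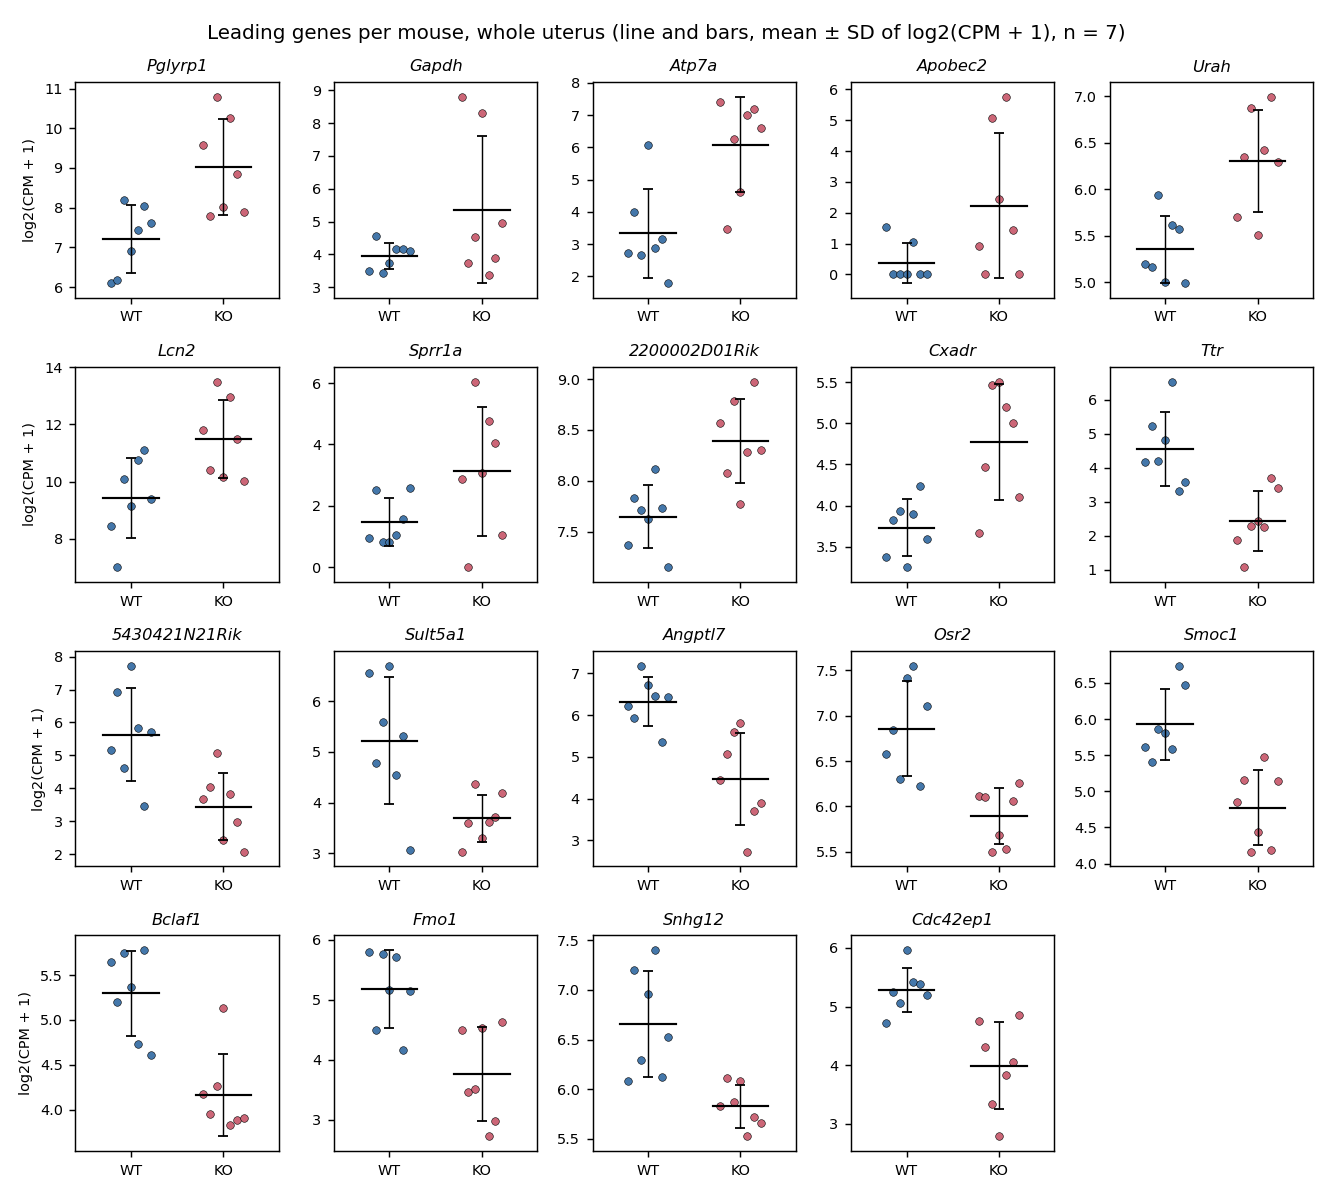
Each panel shows log2(CPM + 1) of a leading gene in the 7 WT (blue) and 7 KO (red) uteri, with 1 point per mouse and the mean ± SD as a line with bars. Genes from Pglyrp1 to Cxadr were higher and genes from Ttr to Cdc42ep1 lower in KO, and Gapdh reaches 441 CPM in 1 KO mouse while its other KO values include 9.41 CPM.

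Among the genes lower in KO, Ttr, a carrier of thyroid hormone and retinol-binding protein, had the smallest p of all genes in edgeR. DESeq2 gave Pglyrp1 a smaller p than Ttr. Ttr lay at 8.96, 17.4 and 91.9 CPM in WT and at 1.11, 3.91 and 12.1 CPM in KO, and 5 of the 7 KO values were below every WT value. Its log2 fold change was -2.49 ± 0.53 (adjusted p = 0.387 in edgeR and 0.0316 in DESeq2). It was -2.85 within plate row A and -0.43 within row D, as differences of mean log2 CPM. The gene 5430421N21Rik (chr15:101315562-101321943) lay at 9.96, 51.9 and 209 CPM in WT and at 3.23, 11.7 and 32.6 CPM in KO, and its log2 fold change was -2.51 ± 0.55. Sult5a1, a sulfotransferase, lay at 7.42, 38.8 and 102 CPM in WT and at 7.19, 11.3 and 19.6 CPM in KO, so that the KO values sat at the low end of a wide WT range. Angptl7 (chr4:147869292-147874569), a secreted angiopoietin-like protein, lay at 39.8, 85.3 and 143 CPM in WT and at 5.65, 20.7 and 54.8 CPM in KO, with a log2 fold change of -1.65 ± 0.37 (adjusted p = 0.387 in edgeR and 0.0486 in DESeq2).

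Other leading genes lower in KO differed by less. Osr2 (chr15:35225853-35233059), an odd-skipped zinc finger factor, lay at 73.7, 113 and 186 CPM in WT and at 44.3, 65.6 and 75.4 CPM in KO, with 6 of 7 KO mice below the WT range and a log2 fold change of -1.02 ± 0.24 (edgeR adjusted p = 0.387). Smoc1, a secreted calcium-binding protein of the matrix, lay at 41.5, 55.0 and 106 CPM in WT and at 16.95, 27.9 and 43.3 CPM in KO, and its log2 fold change was -1.17 ± 0.28. Bclaf1, a nuclear factor of RNA processing, and Snhg12, a snoRNA host gene, also had 6 of 7 KO mice below every WT mouse, with log2 fold changes of -1.17 ± 0.29 and -0.91 ± 0.23. Fmo1, a flavin monooxygenase, and Cdc42ep1, an effector of the GTPase Cdc42, had 4 and 5 KO mice below the WT range. Ttr, Sult5a1, Angptl7, 2200002D01Rik and Cdc42ep1 overlap an annotated gene on the other strand, so their counts are uncertain if strand was not used in counting. All 20 leading genes kept their direction within plate row A and within row D. They were picked from these same libraries, so the shared direction is no separate test of them. Row D held only 2 WT uteri.

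The KO and WT values did not overlap for 8 genes, 0.0617% of those tested, with 1 higher (0.00772%) and 7 lower (0.054%) in KO. Mtx2, of the mitochondrial outer membrane import machinery, was the higher one, at 3.77 to 16.0 CPM in WT and 16.2 to 29.4 CPM in KO (log2 fold change 0.89 ± 0.33). Tnip1, an inhibitor of inflammatory NF-kB signalling, lay at 24.8 to 55.6 CPM in WT and 10.4 to 24.3 CPM in KO, and the 95% interval of its log2 fold change was -1.56 to -0.45 (edgeR adjusted p = 0.570). Sorcs2, a sortilin-related receptor, lay at 5.97 to 17.1 CPM in WT and 0 to 5.57 CPM in KO, and 5430416N02Rik at 9.89 to 14.96 CPM in WT and 1.73 to 7.80 CPM in KO. The gaps between the groups were narrow for Mtx2, Tnip1 and Sorcs2, whose nearest WT and KO values differed by less than 1 CPM.

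The uterine glands secrete proteins that nourish the embryo. Their list had the highest share of members at a small p in the edgeR fit without further terms, but not with plate row or library depth as a term. Of 15 listed gland genes 12 were tested, 5 were lower in KO at an unadjusted p under 0.05 and 0 were higher, against 3.58% lower and 2.06% higher among all genes, and 0 passed after adjustment. The median log2 fold change of the list was -0.77, against -0.05 for all genes. The 5 genes, 41.7% of those tested, were Ttr (above), Spink1, Prss28, Prss29 and Wfdc3. Those not already named by rule were chosen after their values were seen. Spink1, a secreted trypsin inhibitor, lay at 37.7, 276 and 1717 CPM in WT and at 0, 45.6 and 272 CPM in KO, with a log2 fold change of -2.65 (95% interval -4.27 to -1.03). Prss28, an implantation serine proteinase of the glands, lay at 28.7, 116 and 1418 CPM in WT and at 0, 46.3 and 185 CPM in KO, with a log2 fold change of -2.67 (-4.46 to -0.89). Its partner Prss29 lay at 184, 875 and 5324 CPM in WT and at 48.3, 398 and 1470 CPM in KO, with a log2 fold change of -1.95 (-3.36 to -0.54). WT mice 3, 7 and 8 held the highest values of Prss28 and Prss29, and the other 4 WT mice overlapped KO.

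The gland proteinases varied widely within each genotype, and exact permutation tests over mice gave p = 0.0723 for Prss28, 0.0921 for Prss29 and 0.0530 for Spink1 before adjustment. The gland transcription factor Foxa2 was at 0 to 4.65 CPM in WT and 0 to 4.45 CPM in KO, near the floor, and Gpx3, the most abundant list member, lay at 1295 to 3473 CPM in WT and 1196 to 4608 CPM in KO (log2 fold change 0.05 ± 0.26). With plate row or with library depth as a term in the model the count at an unadjusted p under 0.05 was 3 of the 12 genes, and it was 5 in each of the 14 fits without 1 mouse.

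**Figure D3:**
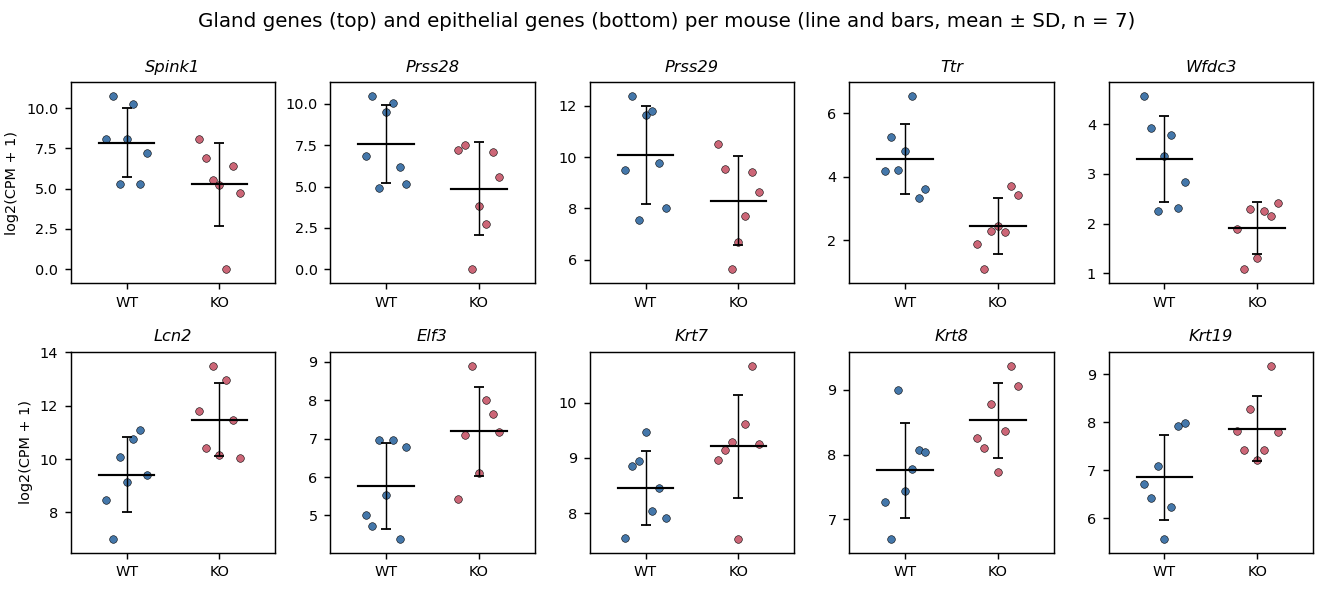
Each panel shows log2(CPM + 1) in the 7 WT (blue) and 7 KO (red) uteri, with 1 point per mouse and the mean ± SD. The gland genes of the upper row have lower KO medians, and the genes of the lower row have higher KO medians with overlapping ranges. The upper row holds only the 5 gland genes at an unadjusted p under 0.05. Of 12 tested gland genes 3 had a log2 fold change above 0, and of 20 tested epithelial genes 9 were below 0. Those genes are not drawn, and Lcn2 comes from the list of hormone-responsive genes.

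Genes known to respond to estrogen or progesterone went both ways. Of 37 listed genes 29 were tested, and 4 were higher and 5 lower in KO at an unadjusted p under 0.05 (all genes 2.06% and 3.58%), with a median log2 fold change of 0.15 and 0 past the adjusted threshold. The higher ones were Lcn2, Krt19, Padi4 and Padi1, the last 2 peptidylarginine deiminases. The lower ones were Penk, Gli1, Hoxa11, Irg1 and Il13ra2. Those not already named by rule were chosen after their values were seen. Gli1, a hedgehog pathway factor of the stroma, was 1.07 to 5.65 CPM in WT and 0 in 6 of 7 KO mice, below the floor in most libraries. Hoxa11, a homeobox factor of the uterine stroma, lay at 8.50, 14.0 and 37.1 CPM in WT and at 3.45, 5.57 and 11.9 CPM in KO, with a log2 fold change of -1.37 (-2.20 to -0.53). Ltf, the classic estrogen-induced lactotransferrin, lay at 18.9 to 1780 CPM in WT and 105 to 2308 CPM in KO, with a log2 fold change of 0.59 (-0.77 to 1.94). In the fits without 1 mouse the lower count was 5 or 6, and the higher count ranged from 2 (without KO mouse 11) to 5.

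Luminal and general epithelial genes were represented by 20 tested genes, of which 4 were higher and 2 lower in KO at an unadjusted p under 0.05, against 2.06% and 3.58% of all genes. Elf3, an epithelial transcription factor, lay at 19.9, 45.0 and 124 CPM in WT and at 42.3, 143 and 475 CPM in KO, with 5 KO mice above the WT range and a log2 fold change of 1.46 ± 0.47 (edgeR adjusted p = 0.631). The keratins Krt7, Krt8 and Krt19 had log2 fold changes of 0.86, 0.70 and 0.95, and the homeobox genes Msx1 and Msx2 of -0.72 and -1.95. The epithelial adhesion gene Epcam lay at 79.1 to 176 CPM in WT and 59.3 to 256 CPM in KO. Without KO mouse 13, which held the highest Krt7 and Krt19 values, 1 gene was higher and 1 lower, and without KO mouse 9 there were 7 and 1. In a single fit of all 6 tissue and genotype groups 1 was higher and 1 lower. The part of KO mouse 13, the library with the fewest detected genes, in these counts was otherwise not tested.

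The steroid receptors and the insulin-like growth factor (IGF) axis held 0 genes at an unadjusted p under 0.05, of 15 and 16 tested. Among all genes 5.64% were, and in lists this short a count of 0 is near that share. With spike-in scaling 2 were lower in each list, and with plate row as a term 1 of the IGF axis was lower. Esr1, the estrogen receptor alpha gene, lay at 39.6, 52.8 and 65.7 CPM in WT and at 23.5, 40.01 and 126 CPM in KO, so that 3 KO mice were above and 3 below the WT range. Pgr, the progesterone receptor gene, lay at 9.62 to 35.8 CPM in WT and 7.54 to 62.1 CPM in KO, with a log2 fold change of 0.31 (-0.54 to 1.17), which changed sign when KO mouse 11 was left out (-0.10). Fkbp4, a cochaperone of steroid receptors, had a log2 fold change of -0.01 (-0.65 to 0.63), and its sign changed with RLE factors and with thinned counts. Igf2 was near the floor at 0.996 to 11.3 CPM in WT and 0 to 10.8 CPM in KO, with a log2 fold change of -0.60 (-1.82 to 0.62). Igf1, a growth factor that the stroma makes under estrogen, lay at 76.2, 144 and 205 CPM in WT and at 85.1, 105 and 206 CPM in KO, and its log2 fold change was -0.33 (-0.81 to 0.16). Its receptor Igf1r had a log2 fold change of -0.16 (-0.85 to 0.53). Among the binding proteins, Igfbp4 had the smallest p of the axis (log2 fold change -0.43, -0.92 to 0.05), with the highest value, 507 CPM, in WT mouse 10. The most abundant, Igfbp6, had a log2 fold change of -0.03 (-0.43 to 0.36), so that a 2-fold difference lay outside its interval, and its sign changed with RLE factors.

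The 2 lists of the muscle wall held 0 members at an unadjusted p under 0.05 and the connective tissue list 7.41%, against 5.64% of all genes. In lists this short a count of 0 is near that share. Of 17 smooth muscle genes 0 passed an unadjusted p of 0.05 and 15 had intervals within 2-fold in both directions, with a median log2 fold change of 0.04. The tropomyosin Tpm2, the most abundant, lay at 3103 to 6458 CPM in WT and 1977 to 6272 CPM in KO. Of 22 genes of contraction receptors and coupling 0 passed, but only 2 had intervals within 2-fold. The prostaglandin E receptor Ptger2 was 3.10 to 7.53 CPM in WT and 0 to 8.09 CPM in KO, with 6 of 7 KO mice below the WT range and a log2 fold change of -1.13 (-2.29 to 0.04). Of 27 fibroblast and collagen genes 2 were higher, the fibulin Fbln1 (log2 fold change 0.84 ± 0.29) and the collagen chain Col1a2 (0.66 ± 0.30, with 1053 CPM in KO mouse 14 against at most 436 CPM in WT), and 0 were lower, against 2.06% and 3.58% of all genes. Without KO mouse 14, 1 was higher and 2 were lower, and with spike-in scaling 0 and 5. Dcn had a log2 fold change of 0.07 (-0.32 to 0.46), which turned to -0.01 without KO mouse 9.

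For vessel and immune genes the background is the 5.64% of all genes past an unadjusted p of 0.05. Leukocyte genes had 8.33% and mast cell genes 14.3%. Endothelial genes had 0 of 15, with a median log2 fold change of -0.25. Leukocyte genes had 1 higher, the B cell receptor component Cd79b (1.10 ± 0.44, at 4.28 ± 2.24 CPM in WT and 9.14 ± 4.48 CPM in KO, mean ± SD, n = 7 each), and 1 lower, H2-Ab1 (-0.64), of 24, where 2.06% and 3.58% of all genes were. Without 1 mouse the higher count ran from 0 (KO mouse 14) to 3 (KO mouse 4 or WT mouse 1), and the lower count was 0 without KO mouse 2, 4, 11 or 13 or WT mouse 7, 8 or 12 and under DESeq2 and RLE factors. Of 7 tested mast cell genes 1 was lower and 0 were higher, against 3.58% and 2.06% of all genes. It was Hdc, which makes histamine, at 71.2 ± 64.6 CPM in WT and 25.1 ± 14.5 CPM in KO (SD, n = 7 each). The mast cell tryptase Tpsb2 had a log2 fold change of -0.18 (-0.70 to 0.35), the sign of which changed without WT mouse 3.

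**Figure D4:**
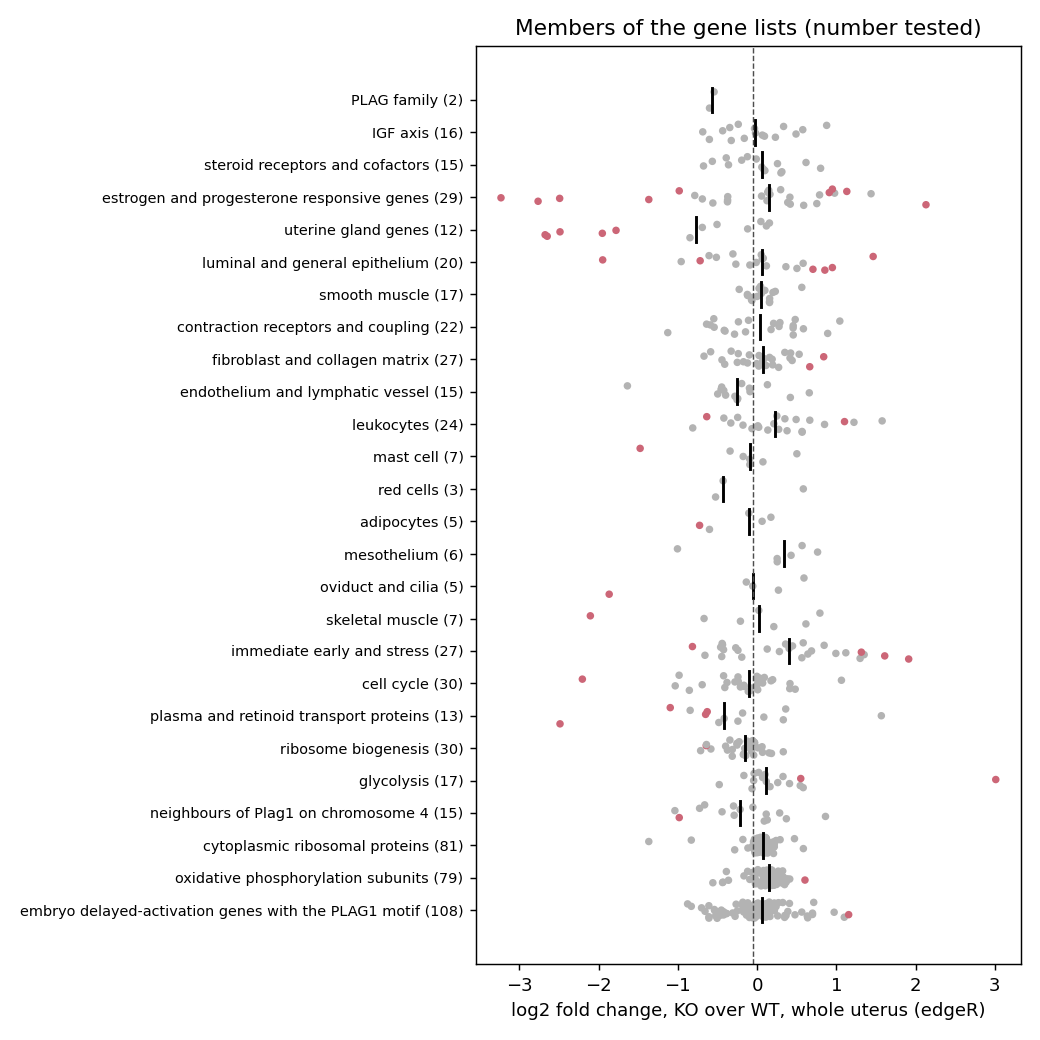
Each point is the edgeR log2 fold change (KO over WT, x axis) of a tested member of the list named on the y axis, with the number tested in brackets. Black bars are list medians, the dashed line is the median of all tested genes (-0.05), and red points are members at an unadjusted p under 0.05. The gland list has 5 red points, all below 0.

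Markers of tissues that could be carried along with the horn were also examined, and their part in the other results was not tested. Ovgp1, the secreted glycoprotein of the oviduct, lay at 0.996, 42.03 and 78.3 CPM in WT and at 3.34, 9.41 and 18.9 CPM in KO, and its log2 fold change was -1.87 (-3.07 to -0.66). WT mice 1, 7, 8 and 12 were above every KO mouse, and the difference of mean log2 CPM was -1.98 within row A and 0.22 within row D. Ovgp1 was the 1 of 5 tested oviduct and cilia genes lower at an unadjusted p under 0.05, against 3.58% of all genes. Foxj1, the ciliated cell factor, was at most 4.53 CPM. Among skeletal muscle genes Tnni2 was lower (-2.10, -3.49 to -0.71, with 289 CPM in WT mouse 10). It was the 1 of 7 that passed, against 3.58% of all genes, and 0 passed without WT mouse 10. The summed level of adipocyte genes was 51.2 to 449 CPM in WT and 48.3 to 122 CPM in KO. Of these 5 genes Lpl was lower (-0.73), where 3.58% of all genes were, and 0 were lower without KO mouse 2, 4, 6 or 11 or WT mouse 1, 10 or 12. The defining gene Adipoq was 0 in every KO library and at most 12.2 CPM in WT. Of 3 red cell genes and 6 mesothelial genes 0 passed, where 5.64% of all genes did, and Hba-a1 and Hbb-b1 were listed at 0 in all 14 libraries.

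Plasma and retinoid transport genes held 4 lower members of 13, Ttr, Apoe, Trf and Serpina3n, and 0 higher (all genes 3.58% lower and 2.06% higher), with a median log2 fold change of -0.42. Apoe, a lipid carrier made by macrophages and stroma, lay at 639, 1331 and 2182 CPM in WT and at 415, 784 and 1603 CPM in KO, and its log2 fold change was -0.65 (-1.21 to -0.09). Without WT mouse 7 or KO mouse 13 the count of lower members was 2.

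Ribosomal protein and oxidative phosphorylation genes are abundant, and their intervals were mostly narrow. Intervals lay within 2-fold for 73 of 79 oxidative phosphorylation genes and 19 of 30 ribosome biogenesis genes. They did for only 4 of 30 cell cycle genes and 10 of 17 glycolysis genes. Of 81 cytoplasmic ribosomal protein genes 0 passed an unadjusted p of 0.05, which 5.64% of all genes did, and 75 had intervals within 2-fold. A log2 fold change above 0 was found for 65 of them, with a list median of 0.08, whereas 29 passed in the lower direction when libraries were scaled to the spike-ins. Above 0 lay 45.3% of all genes and 720 of the 1092 genes of 100 CPM or more. Of 79 oxidative phosphorylation genes 63 were above 0 and 1 passed, against 5.64% of all genes. It was Cox7b, a cytochrome oxidase subunit (0.60 ± 0.21, at 575 to 1143 CPM in WT and 668 to 1843 CPM in KO). That count was 10 without KO mouse 9, 5 without WT mouse 3 and 6 in DESeq2. Of 30 ribosome biogenesis genes 24 were below 0, as were 7084 of all 12959, with a median of -0.15. Polr1c of RNA polymerase I and III (-0.64 ± 0.28) was lower and 0 were higher, against 3.58% and 2.06% of all genes. Of the 30, 0 passed without KO mouse 6, 9 or 11 or WT mouse 1 or 12, with thinned counts or with depth as a term. Under DESeq2 2 were lower, and with spike-in scaling 7. Of 30 cell cycle genes Kif11, a mitotic kinesin found at most at 2.83 CPM, was lower and 0 were higher, a share (3.33%) near the 3.58% of all genes that were lower. Kif11 is near the floor, and 0 of the list were lower in 9 of the 14 fits without 1 mouse. Of 17 glycolysis genes Gapdh (above, high in only 2 KO mice) and Pgk1 (0.55 ± 0.21) were higher and 0 were lower, against 2.06% and 3.58% of all genes.

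Immediate early genes, which answer to handling and stress as well as to hormones, had a median log2 fold change of 0.40 in 27 tested genes. Jund, Fos and Atf3 were higher and Myc lower in KO at an unadjusted p under 0.05, which 2.06% and 3.58% of all genes were. KO mouse 14 held the highest values of the first 3, 427 CPM for Jund, 267 CPM for Fos and 231 CPM for Atf3, followed by KO mouse 4 with 108, 81.4 and 73.6 CPM. In the remaining 5 KO mice Jund was 28.2 to 39.1 CPM, within the WT range of 22.7 to 45.9 CPM. Without KO mouse 14, 0 of these genes were higher and 1 was lower.

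At the Plag1 locus the neighbour Chchd7, a mitochondrial protein whose annotated start lies 465 bases from that of Plag1 on the other strand, was 42.8, 52.7 and 64.1 CPM in WT and 48.9, 69.7 and 82.2 CPM in KO. In 4 KO mice the value was above the WT range, and its log2 fold change was 0.37 (-0.04 to 0.77, edgeR adjusted p = 0.872). Penk, the precursor of the enkephalin peptides, lies further along the same chromosome (chr4:4060678-4065966, minus strand). It lay at 44.8, 54.7 and 126 CPM in WT and at 20.7, 32.3 and 47.4 CPM in KO, with 6 of 7 KO mice below the WT range and a log2 fold change of -0.98 (-1.53 to -0.43, edgeR adjusted p = 0.570). Penk overlaps A830012C17Rik on the other strand, and the use of strand in counting is not given in the sources used here. Penk was the only one of 15 tested neighbours, and of 28 tested genes within 10 Mb, to pass an unadjusted p of 0.05 in edgeR, where 5.64% of all genes did, and the median log2 fold change of the 28 was -0.23. Under DESeq2, RLE factors, a filter at 10 CPM or without KO mouse 9, 1 neighbour was higher besides 1 lower, and without KO mouse 4 or with spike-in scaling 2 were lower. The ribosomal protein gene Rps20, the most abundant neighbour, had a log2 fold change of 0.13 (-0.26 to 0.52).

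Genes with the PLAG1 consensus in the promoter had a share near that of all genes. Of 4019 tested genes with a match 78 were higher and 138 lower at an unadjusted p under 0.05, 5.37% against 5.64% of all genes, and their median log2 fold change was -0.07. Among the leading genes 18 had a promoter in the annotation and 7 held a match (38.9%, against 34.0% of tested genes), 2 higher in KO (Atp7a and Gapdh) and 5 lower (5430421N21Rik, Sult5a1, Osr2, Smoc1 and Cdc42ep1). A second list held 127 genes, taken from the supplementary tables, that were picked in early embryos for late activation and a longer PLAG1-like motif. In the uterus 108 of them were tested, and 1 was higher and 0 lower at an unadjusted p under 0.05, against 2.06% and 3.58% of all genes. Of these 108 genes 69 had intervals within 2-fold, and the median log2 fold change was 0.06. The higher one was Folr1, a folate receptor of epithelia, at 1.07 to 17.9 CPM in WT and 3.76 to 31.1 CPM in KO (1.16 ± 0.54). The most abundant was the ribosomal protein gene Rpl37a (0.22 ± 0.21). The motif sites of these genes are given from the study's supplementary table, found at their coordinates in NCBIM37, with each GAGGC core in capitals.
Folr1, minus strand, chr7:109020669-109020699: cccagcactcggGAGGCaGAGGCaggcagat
Rpl37a, plus strand, chr1:72757008-72757038: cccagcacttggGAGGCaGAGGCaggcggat

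The same 14 mice gave scraped endometrium and myometrium, so values in those tissues are not independent of those in whole uterus. In endometrium alone 676 of 13004 genes (5.20%) and in myometrium alone 548 of 12991 genes (4.22%) were at an unadjusted edgeR p under 0.05, and 0 passed after adjustment in either. Of the 20 leading genes 18 had the same direction in endometrium, 9 of them at an unadjusted p under 0.05, and 17 of 19 tested had it in myometrium, 6 of them at that p. Cdc42ep1 and Smoc1 were the ones above 0 in endometrium, at 0.63 ± 0.39 and 0.04 ± 0.36 (SE), and Cxadr and Cdc42ep1 turned direction in myometrium, at -0.74 ± 0.78 and 0.31 ± 0.44. The genotype effect in uterus minus that in endometrium, tested directly over 42 mouse and tissue samples, passed an adjusted p of 0.05 for 0 of 14822 genes in edgeR (760 at an unadjusted p under 0.05, 5.13%) and 0 in DESeq2. The same difference against myometrium also gave 0 in both (630 at an unadjusted p in edgeR, 4.25%).

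Prss29 had log2 fold changes of -1.95 in uterus, -1.01 in endometrium and -1.29 in myometrium, and WT mouse 3 was highest in each tissue, at 5324, 10037 and 1745 CPM. The median of the gland list was -0.89 in endometrium and -0.87 in myometrium. Lcn2 had log2 fold changes of 2.13, 1.36 and 0.86 in these tissues, and its highest value was in KO mouse 6 in uterus and endometrium and in KO mouse 11 in myometrium. Elf3 had 1.46, 1.45 and 0.34. By contrast, the immediate early gene Fos had 1.91 in uterus, -1.87 in endometrium and -0.46 in myometrium.

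**Figure D5:**
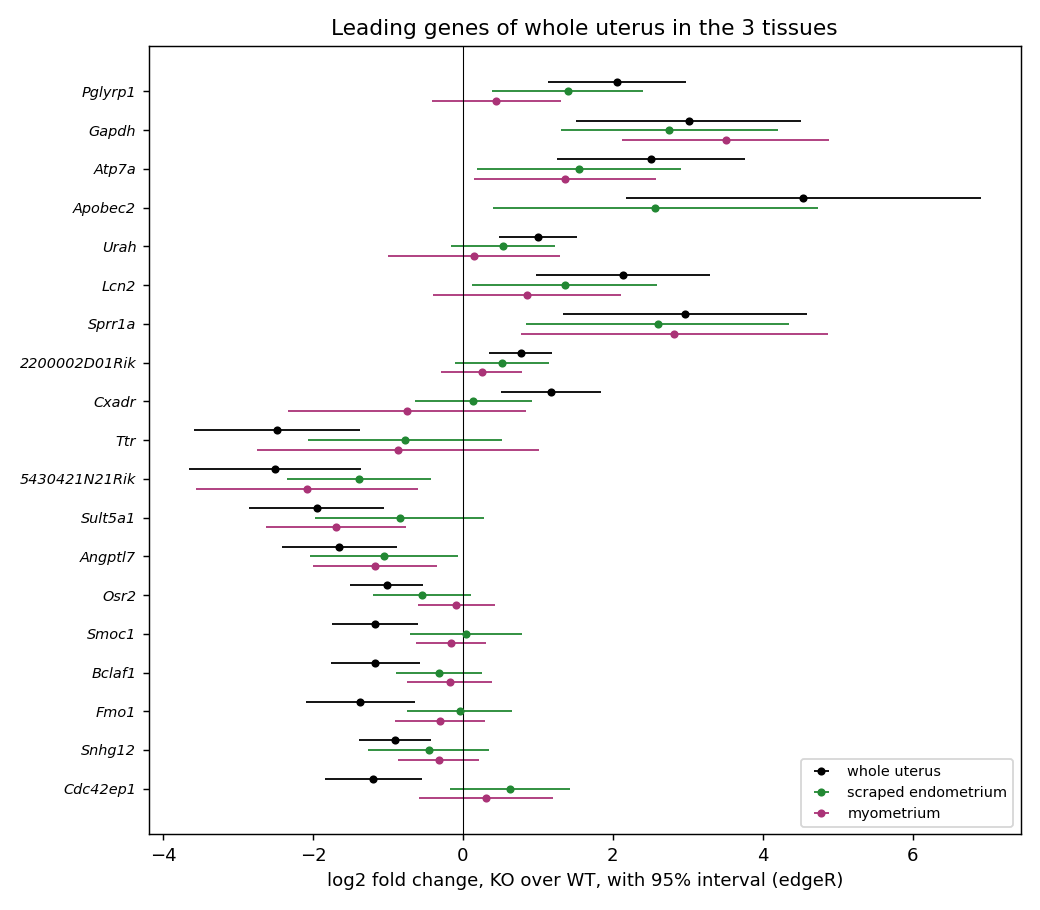
Points are edgeR log2 fold changes, KO over WT, of 19 leading genes of whole uterus in uterus (black), scraped endometrium (green) and myometrium (purple), with 95% intervals. Gapdh lies between 2.75 and 3.51 in all 3 tissues, while Cdc42ep1 is -1.20 in uterus and 0.63 in endometrium.

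The precision of the comparison limits what the absence of calls covers. Intervals lay within 2-fold in both directions for 4088 of 12959 genes (31.5%) and within 4-fold for 10273 (79.3%). The share within 2-fold was 4.65% for the 6945 genes under 10 CPM and 88.5% for the 1092 genes of 100 CPM or more. These are unadjusted intervals, and an interval within 2-fold does not mean that a 2-fold difference would pass the adjusted threshold: Osr2 and Urah, at -1.02 ± 0.24 and 1.00 ± 0.25, had edgeR adjusted p of 0.387 and 0.533. Plagl1, Plagl2, Igf2, Foxa2 and Gli1 were among the low genes.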

How the data were processed

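RNA of whole uterus, 10 ng per library, was measured by STRT RNA-seq, which captures the 5′ ends of transcripts with molecular identifiers. The authors deposited raw counts per gene and per ERCC spike-in in a single table. According to their methods, molecule-collapsed reads were aligned with TopHat to mm9 and counted over UCSC genes with Homer, and the submitters' processing notes also name HTSeq. Handling of multiply mapped reads and of strand is not given in the sources used here, so genes with near-identical copies (Gapdh, Rps2 and other ribosomal protein genes) and genes that overlap others are uncertain.

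Here, libraries were grouped by title, and the labels do not say more about how the mice were related, so p-values measure the spread between these mice. A gene was kept if 5 or more libraries reached 1 CPM. The test was the quasi-likelihood F test of edgeR 4.0.16 in R 4.3.3, with TMM factors from gene counts without spike-ins and Benjamini-Hochberg adjustment at a threshold of 0.05. The common biological coefficient of variation was 43.5%. SEs of log2 fold changes were derived from the F statistic. Differences in genotype effect between tissues were tested in edgeR over 42 mouse and tissue samples, with repeat libraries of a mouse and tissue summed. Alternatives were DESeq2 1.42.0, RLE factors, spike-in scaling, no gene filter, at least 10 CPM, plate row or log2 depth as a term, all 6 groups in 1 fit, counts thinned to 485887 per library, exact permutation, and each mouse left out. The fits were tested on simulated data. DESeq2 gave no adjusted p to 6281 genes.

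Named genes were the PLAG family, Igf2, Chchd7, Igf1, Igf1r, Esr1 and Pgr, the 10 smallest p-values per direction at a mean of at least 10 CPM in either genotype (the leading genes, of which 1 is not reported here), the smallest-p and most abundant member of each list, the 6 genes with the largest SD of log2 CPM at an average of 5 or more, up to 3 genes per direction with the widest gap between genotypes, and up to 5 genes called under an alternative. Markers of tissues and a few other list members were added after values were seen. The comparison and the lists were chosen with earlier results of these data known. Coordinates and promoters are from NCBIM37 with GENCODE gene models, which named 11940 of the 12959 tested genes.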

Additional observations from a re-analysis of the deposited data

Results flagged for a closer look

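In 16 of 214 groups of 7 mice (7.48%) the highest or lowest library stood apart from the nearest other by more of the group's whole range than Dixon's 95% limit for 7 values allows, which chance passes in about 1 in 20 groups. Values are log2 CPM. In KO, mouse 9 was high for Igf1 (7.70, next 6.94), Bclaf1 (5.18), Irg1 (3.81) and Kif11 (1.86, where the other 6 KO libraries had 0 counts), mouse 13 was high for Tppp3 (8.12) and low for 5430416N02Rik (1.96), mouse 14 was high for Col1a2 (10.0), mouse 6 was high for Gli1 (2.25, again with 0 counts in the others), mouse 4 was low for Tpm1 (10.8) and mouse 11 was low for Wt1 (1.11). In WT, mouse 10 was high for Igfbp4 (8.99) and Aldoa (9.21), mouse 3 was high for Tpsb2 (7.20) and low for Plagl2 (1.63), mouse 5 was high for Penk (7.00) and mouse 8 was high for Rps2 (10.4, next 7.07). Leaving out WT mouse 8 turned the log2 fold change of Rps2 from -1.37 to 0.35. Leaving out WT mouse 5 left Penk lower in KO.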

How the results depend on the processing

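Under DESeq2 the count of genes past the adjusted threshold was 7, and DESeq2 was not run with a mouse left out. In edgeR the count was 0 with all mice and 0 to 1 when 1 mouse was left out, the gene being Atp7a without WT mouse 7. The count was 0 in every other alternative, including an adjusted threshold of 0.1. At an unadjusted p under 0.05 the count was 1682 with spike-in scaling, 398 with a filter at 10 CPM (fewer genes tested) and 618 to 875 with 1 mouse left out. Genes without overlap between the genotypes numbered 33 with spike-in scaling, 5 with thinned counts and 3 with the filter at 10 CPM. The depth difference was -135180 within plate row A and -191150 within row D, and the ERCC difference 0.207 percentage points within row A and 0.10035 within row D. The mouse numbers in uterus belong to different WT and KO mice and pair nothing there. For the differences between tissues, which come from the same mice, a fit with the mouse number as a replicate block gave 0 genes against endometrium and 0 against myometrium, as without it. Of 2478 recomputed values of 104 named genes, 2411 kept their direction and side of the threshold, 8 passed the threshold and 59, in 15 genes, had the other direction, none of them among the 477 values of leading genes. Leading genes were picked for a small p in these same libraries, so their kept direction is no separate test. Direction with spike-in scaling was taken relative to the median of all genes, so the shift of that median does not enter. Of 643 list medians 0 moved by more than the spread between mice. With log2 depth as a term, Pgr was -0.40, Igfbp6 0.19, Ptgis 0.43, Egfl7 0.070, Ube2c 0.27, Npm1 0.051, Clca1 -0.47 and Kap 1.26. With plate row as a term, Igfbp6 was 0.00751, Gpx3 -0.038, Ptgis 0.00087, Ube2c 0.010 and Kap 0.25. Under DESeq2 and RLE factors, Igfbp6 was 0.0045 and 0.0045, Fkbp4 0.023 and 0.022, and Kap 0.018 and 0.017, and Rps2 was 0.37 under DESeq2. With spike-in scaling, taken relative to the median of all genes, Igfbp6 was 0.030 and Egfl7 0.020. With thinned counts Fkbp4 was 0.082 and Kap 0.094. On log2(CPM + 1) Gpx3 was -0.012 and Kap 1.59. Kap was 0.016 with no filter and 0.013 with all 6 groups in 1 fit. With 1 mouse left out, the ranges that crossed 0 were -0.10 to 0.56 for Pgr, -0.10 to 0.062 for Igfbp6, -0.16 to 0.16 for Fkbp4, -0.17 to 0.18 for Gpx3, -0.42 to 0.37 for Ptgis, -0.0135 to 0.17 for Dcn, -0.24 to 0.0066 for Egfl7, -0.31 to 0.066 for Tpsb2, -0.10 to 0.42 for Upk3b, -0.40 to 0.26 for Ube2c, -1.96 to 0.35 for Rps2, -0.011 to 0.15 for Rpl21 and -0.98 to 2.65 for Kap. The cause of these shifts was not tested. Depth limits the low genes most, since 3 counts are 2.26 to 5.65 CPM.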

Other observations

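Some genes varied widely over the 14 uteri. Among genes averaging 5 or more on the log2 CPM scale, SDs were largest for Klk1, Clca1, Prss28, Car4, Aqp8 and Kap. Klk1, a tissue kallikrein, ran from 3.77 to 772 CPM in WT and from 1.48 to 3447 CPM in KO, with the 2 highest values in KO mice 13 and 14. Clca1, a secreted regulator of mucus and chloride channels, ran from 0 to 308 CPM in WT and from 6.29 to 437 CPM in KO. Aqp8, a water channel, ran from 12.4 to 692 CPM in WT and from 1.48 to 1143 CPM in KO. Kap, an androgen-regulated protein, was 678 CPM in WT mouse 5 and at most 59.8 CPM in the other WT mice. Car4, a membrane carbonic anhydrase, had a log2 fold change of 1.83 (0.12 to 3.54), yet an exact permutation test of its log2(CPM + 1) over the mice gave p = 0.659.

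Gapdh and Atp7a kept their high and low mice in all 3 tissues. Gapdh in KO mouse 2 was 441 CPM in uterus, 677 in endometrium and 671 in myometrium, and in KO mouse 9 it was 313, 450 and 703 CPM, whereas in the other 12 mice it was at most 45.9 CPM in any tissue. Atp7a in WT mouse 7 was 66.7, 74.1 and 153 CPM, and in KO mouse 4 it was 10.0, 5.94 and 8.51 CPM. The genes next to Atp7a on chromosome X included Cox7b (chrX:103211039-103217789), with a log2 fold change of 0.60, and Pgk1 (chrX:103382439-103399038), with 0.55, both at an unadjusted edgeR p under 0.05 (0.00826 and 0.0168). Of 11 tested genes whose starts lie within 1 Mb of that of Atp7a these were, with Atp7a itself, the 3 at that p. Among all genes 5.64% were. The window was placed around Atp7a because it was a leading gene, so its own place in the count was fixed beforehand.

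Rps14, the most abundant ribosomal protein gene, was uneven among mice of 1 genotype. In WT uterus it was 24040 to 27247 CPM in mice 1, 3 and 10 and 6808 to 9621 CPM in mice 5, 7, 8 and 12. In myometrium the same groups of mice were at 10562 to 11881 CPM and at 19412 to 24189 CPM, the opposite order.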
